A study of Mus musculus with 8 samples.

Results

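The genes described here are 5 beta-1,3-galactosyltransferase genes, B3galt1, B3galt2, B3galt4, B3galt5 and B3galt6, together with Cdc73, the gene that hosts B3galt2 on the opposite strand. Members were the 6 genes with these names in the array files, of 36161 names in all, and they had 7 of 55681 distinct non-control probes (2 for B3galt4, 1 for each other gene). B3galt2 and Cdc73 were picked because their levels differed between control and mutant arrays in these same data, so their group values are given as a description without a test. The other B3galt genes were included by family name.

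RNA of mouse small intestine, taken at stage E18.5, was hybridised to 8 single-colour Agilent arrays. The 4 mutants were Rfx6 fl/fl Ngn3-cre, with both alleles of the endocrine transcription factor gene Rfx6 flanked by recombination sites and Cre driven by Ngn3, a gene of endocrine progenitors. Control replicates 1, 3 and 4 were Rfx6 fl/+ and control replicate 2 was Rfx6 fl/fl, and Cre is named for none of them. The Cre transgene, its genomic surroundings and the loss of Rfx6 therefore lie in the same contrast and cannot be told apart. The design text names Ngn3-Cre mice as the source of Cre, so only cells with a history of Ngn3 expression should recombine, while the RNA came from the intestine as harvested. The labels do not state whether the samples came from separate embryos or litters, so p-values measure the spread between these 8 samples.

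Beta-1,3-galactosyltransferases are Golgi enzymes that transfer galactose from UDP-galactose to a sugar acceptor. B3galt1, B3galt2 and B3galt5 extend N-acetylglucosamine to build type 1 chains, the precursors of Lewis and blood group antigens that are abundant on gastrointestinal epithelium. B3galt4 makes complex gangliosides and B3galt6 adds a galactose to the linker that joins glycosaminoglycans to proteoglycan core proteins. Cdc73 encodes parafibromin, a tumour suppressor protein and a subunit of the Paf1 complex that travels with RNA polymerase II during elongation.

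The B3galt2 and Cdc73 values rest on single 60-base probes, and another probe of the same stretch of chromosome 1 is described with them. Their sequences are shown because each reads 1 strand of a locus in which the genes overlap. All positions of probes are on build mm9 as in the array files, and a probe whose coordinates are written in descending order there is given here as minus strand. The B3galt2 probe lies at chr1:145496531-145496590 on the plus strand, the Cdc73 probe at chr1:145456507-145456566 on the minus strand, and the probe named for transcript ENSMUST00000105081 at chr1:145453391-145453450 on the minus strand.
B3galt2: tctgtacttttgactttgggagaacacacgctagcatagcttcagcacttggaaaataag
Cdc73: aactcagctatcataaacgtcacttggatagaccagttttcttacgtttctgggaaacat
ENSMUST00000105081: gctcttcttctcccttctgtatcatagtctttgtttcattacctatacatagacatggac
None of these 3 sequences shared a run of 15 bases or more, on either strand, with another non-control probe of the array. The starts of the B3galt2 and Cdc73 probes are 40024 bases apart, and that other probe starts 3116 bases from the Cdc73 probe. In the RefSeq gene table (GRCm38.p6, used for gene order) B3galt2 lies wholly within the bounds of Cdc73. Whether these probes fall in exons or UTRs on mm9 was not analysed here.

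B3galt2 was the member with the widest separation between groups. Values are log2 processed intensity minus the log2 of the array's 75th percentile over non-control spots, called the level from here on. In control replicates 1 to 4 the B3galt2 level was -8.02, -7.87, -7.74 and -7.24. In mutant replicates 1 to 4 it was -4.15, -1.54, -1.54 and -1.56. All mutant arrays lay above all control arrays, and mutant replicate 1 lay between the controls and the other 3 mutants. On the linear scale before scaling, the spot read 3.72, 4.39, 4.68 and 6.37 intensity units in controls and 44.3, 303, 336 and 349 in mutants. The probe was well above background on all 4 mutant arrays and on no control array, and the control values are surrogates that the scanner software set for spots near background.

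Since no control was well above background, the measured difference of 5.52 between group means (control -7.72 ± 0.34, mutant -2.20 ± 1.30, SD, n = 4 each) gives no fold. Against the higher of the control probe's own value and the lowest level well above background on each control array, the mutant mean was 13.2-fold higher. By single arrays this ratio was 3.40-fold in mutant replicate 1 and 20.6-fold to 20.8-fold in the other 3. That lowest level belongs to the dimmest detected probe, and undetected probes can lie above it, so the ratio is no strict minimum. The ratio depends on the background correction. With normexp correction, which here added an offset of 50 to every spot, the measured ratio of group means was 4.24-fold. With the deposited value table, of unstated processing, it was 4.26-fold. Both leave dim spots at higher values than the processed signal does, so neither ratio measures the true fold.

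A change from undetected in every control to detected in every mutant was rare on the array. Of 55681 probes, 3 were well above background on all 4 mutant arrays and on no control array (0.00539%), and 5 showed the converse (0.00898%). The other 2 of the 3 were Cela2a, which encodes a pancreatic elastase, with a difference of 3.95 (SE 0.60), and an intergenic interval probe on chromosome 12 at 110749923 to 110749982 with a difference of 1.07 (SE 0.44). The differences of B3galt2 and Cela2a rest on control values at the floor and give no size. These counts come from the contrast by which B3galt2 was picked and are descriptive.

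**Figure D1:**
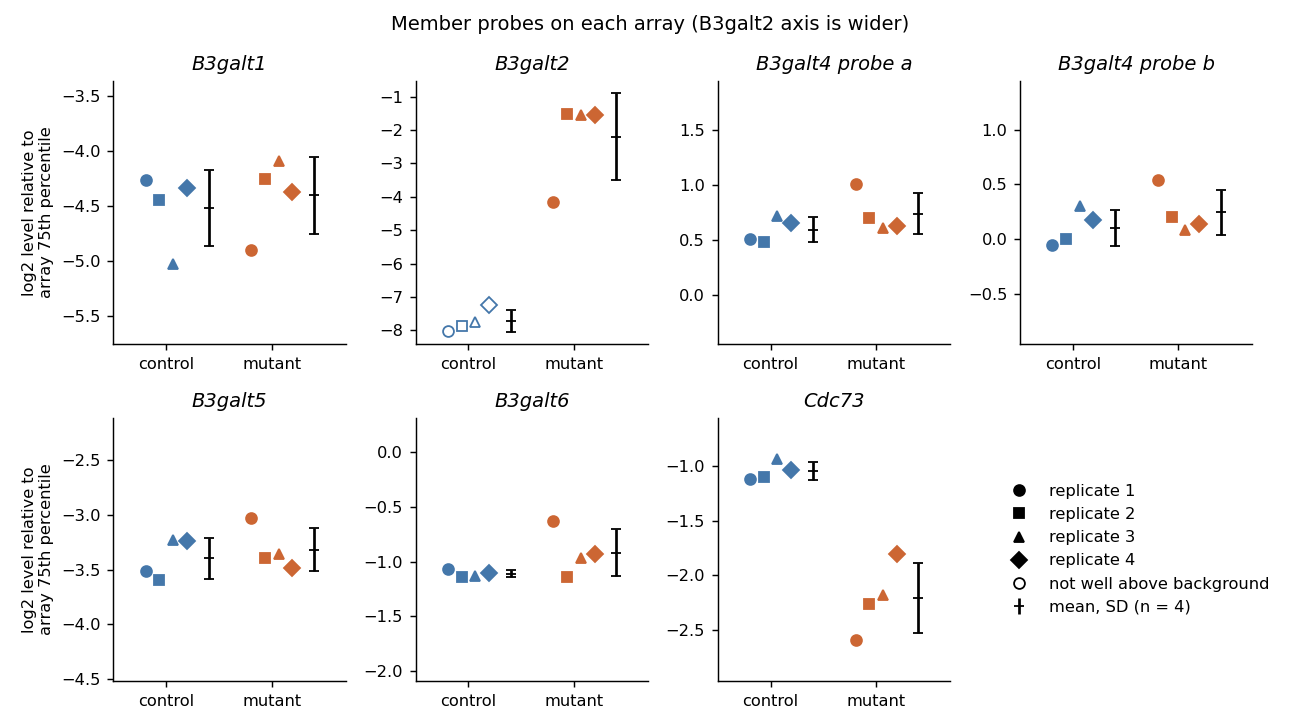
Level of each member probe on each array (log2 processed intensity minus that of the array's 75th percentile), with control arrays on the left and mutant arrays on the right of each panel. Symbols mark replicates, open symbols mark values not well above background, and bars show the mean and SD of 4 arrays. B3galt2 controls lie between -8.02 and -7.24 and its mutants between -4.15 and -1.54, Cdc73 mutants lie below the controls, and the groups overlap for the other 5 probes.

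Cdc73, the host gene, was lower in the mutants. Its level was -1.12, -1.10, -0.94 and -1.04 in control replicates 1 to 4 and -2.59, -2.26, -2.18 and -1.81 in mutant replicates 1 to 4. The probe was well above background on all 8 arrays, and every mutant lay below every control. The group means were -1.05 ± 0.08 and -2.21 ± 0.32 (SD, n = 4 each), a difference of -1.16 (SE 0.16), which corresponds to a 2.23-fold lower level. In bulk tissue, fewer cells of a type and less RNA per cell cannot be told apart. Mutant replicate 1 was the lowest array for Cdc73 and also the lowest mutant for B3galt2, and without it the differences were -1.03 for Cdc73 and 6.17 for B3galt2. By slide row, the Cdc73 difference was -1.31 in the row with replicates 1 and 2 and -1.0 in the row with replicates 3 and 4, and that of B3galt2 was 5.10 and 5.94.

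The groups did not overlap for these 2 of the 7 member probes, against 4.38% of all tested probes (2.81% higher and 1.56% lower in mutants). Because the contrast itself brought B3galt2 and Cdc73 into the set, nothing is read from this share.

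**Figure D2:**
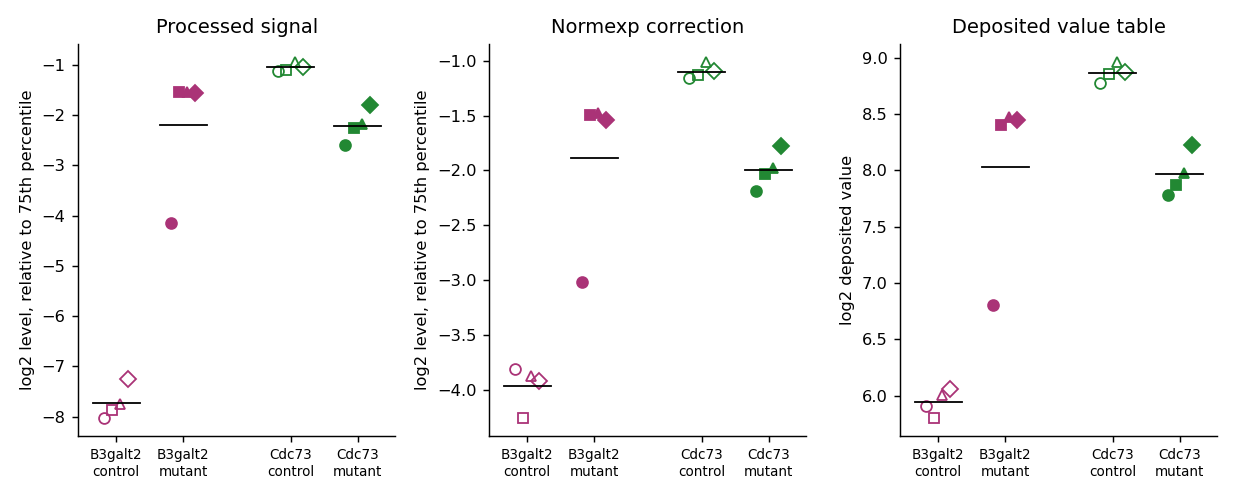
B3galt2 and Cdc73 on each array under 3 ways of processing: the processed signal, normexp background correction and the deposited value table, all on log2 axes. Open symbols are controls, filled symbols mutants and lines the group means of 4 arrays. Levels of the separate probes are not comparable with each other. Within each probe the groups stay apart in all 3 panels, while the B3galt2 difference shrinks from 5.52 to 2.08 and 2.09.

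The remaining probe of this stretch was chosen by position alone. ENSMUST00000105081 carries no gene symbol in the array files, and its coordinates run in the same direction as those of Cdc73. Its level was -0.66, -0.58, -0.63 and -0.59 in control replicates 1 to 4 and -1.97, -1.12, -1.21 and -1.17 in mutant replicates 1 to 4. All mutants lay below all controls, with mutant replicate 1 lowest, as for Cdc73. The difference was -0.75 (SE 0.19) and did not pass the test over all probes (limma adjusted p = 0.649, unadjusted p = 0.00328). Without mutant replicate 1 it was -0.55 (limma adjusted p = 0.0904, still not called), and the SD of the mutants was 0.04 in place of 0.40.

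The next genes along the chromosome had overlapping groups. Within 2 Mb on either side of the 2 member probes lay 11 other probes with 9 names, of which 9 probes were well above background on at least 4 arrays and were tested. None of the 9 was called by limma, where 0.0423% of all tested probes were called, so a call among so few would be rare. An unadjusted p under 0.05 was found for 1 of them, ENSMUST00000105081, against 5.05% of all tested probes. The other 8 tested probes belong to 6 genes, and their differences ran from -0.39 to 0.13, with limma adjusted p of 0.828 to 0.995. Glrx2, a mitochondrial glutaredoxin gene with probes starting 97.3 kb and 100.04 kb from the B3galt2 probe, differed by -0.04 (SE 0.09) and 0.03 (SE 0.13). Trove2, which encodes the RNA-binding Ro60 protein, differed by -0.39 (SE 0.45). That value came with mutant replicate 1 at -2.77 and the other mutants at -0.76 to -0.56, and without that array the difference was 0.14. Uchl5, a deubiquitinase gene, differed by -0.31 (SE 0.18), and by -0.12 without mutant replicate 1.

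Of the cluster of Rgs genes farther along, which encode regulators of G protein signalling, 3 genes were tested. Rgs2 differed by 0.06 (SE 0.15) and -0.0026 (SE 0.09) at its 2 probes, Rgs1 by 0.07 (SE 0.20) and Rgs21 by 0.13 (SE 0.27). Rgs13 was not well above background on any array, and Rgs18 was on 2 arrays, so neither was tested. On the other side of Cdc73 the array held no probe within 2 Mb beyond ENSMUST00000105081. Widening the window to 4 Mb brought the tested probes to 20, again with none called by limma and with 1 at an unadjusted p under 0.05, about the share over all tested probes.

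**Figure D3:**
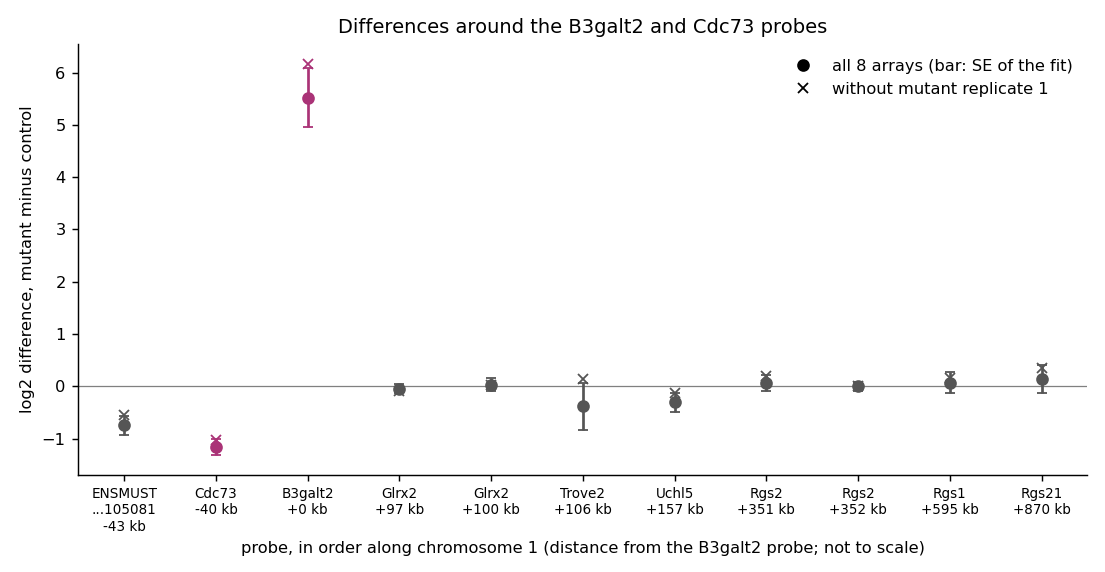
Difference between mutant and control means (log2) for B3galt2, Cdc73 and the 9 tested neighbour probes within 2 Mb, in order along chromosome 1 with the distance from the B3galt2 probe under each name. Circles use all 8 arrays with the SE of the fit, and crosses leave out mutant replicate 1. B3galt2 stands at 5.52, Cdc73 at -1.16 and ENSMUST00000105081 at -0.75, while the other 8 probes lie between -0.39 and 0.13.

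The stretches before the start sites of B3galt2 and Cdc73 differ in base composition and are shown for that reason. Both are the 250 bases before the RefSeq start (GRCm38.p6), read in the direction of the gene, with CpG dinucleotides in capitals. The B3galt2 stretch is chr1:143640447-143640696 on the plus strand and the Cdc73 stretch is chr1:143702894-143703143 on the minus strand.
B3galt2: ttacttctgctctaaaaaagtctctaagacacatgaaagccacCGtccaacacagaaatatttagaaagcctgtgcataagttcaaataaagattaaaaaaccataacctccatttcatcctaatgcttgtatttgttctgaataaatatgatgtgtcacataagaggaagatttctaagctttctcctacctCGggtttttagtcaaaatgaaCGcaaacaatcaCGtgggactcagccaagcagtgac
Cdc73: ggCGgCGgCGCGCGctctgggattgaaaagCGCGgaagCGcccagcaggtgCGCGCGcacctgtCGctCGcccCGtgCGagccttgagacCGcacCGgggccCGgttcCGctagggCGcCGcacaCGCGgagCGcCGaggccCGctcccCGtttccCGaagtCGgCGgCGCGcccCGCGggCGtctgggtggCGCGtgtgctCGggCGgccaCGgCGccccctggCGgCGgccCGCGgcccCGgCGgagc
The B3galt2 stretch held 4 CpG and was 36.8% G or C, against medians of 6 CpG and 52.4% over 32851 RefSeq promoters. The Cdc73 stretch held 47 CpG and was 80.4% G or C, and 0.186% of promoters held more CpG. The letters GTTGCC, an RFX half-site, were searched on both strands of windows from 250 bases before to 50 bases after the start. They occurred in 12.5% of all promoters and in none of the member windows, which says only that these letters are not in those windows.

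The other 4 B3galt genes did not separate the groups. All 5 of their probes were well above background on all 8 arrays, and all 5 had overlapping groups. None was called (limma adjusted p = 0.828 to 0.898, none with an unadjusted p under 0.05). Of all tested probes, 0.0423% were called (0.00282% higher and 0.0395% lower in mutants). The share called higher is the B3galt2 probe alone, picked from this contrast, so it is no background for the family. Differences of the 5 probes ran from 0.08 to 0.19, and the 95% intervals of the fit together spanned -0.39 to 0.62. All 5 point estimates were above 0, with a range of -0.016 to 0.28 without mutant replicate 1. The median difference of all tested probes was 0.024.

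Among the type 1 chain enzymes, B3galt5 is the gene best known from intestinal epithelium. Its probe (chromosome 16, 96541170 to 96541229) was at -3.51, -3.60, -3.23 and -3.24 in control replicates 1 to 4 and at -3.03, -3.39, -3.36 and -3.49 in mutant replicates 1 to 4. The arrays of both groups are intermixed, and the difference was 0.08 (SE 0.14, 95% interval -0.23 to 0.39). B3galt1 (chromosome 2, 67958260 to 67958319) was at -4.26, -4.44, -5.03 and -4.34 in controls and at -4.90, -4.25, -4.09 and -4.37 in mutants. Control replicate 3 and mutant replicate 1 were the low arrays, and the difference was 0.12 (SE 0.22, 95% interval -0.39 to 0.62). Without control replicate 3 it was -0.055, so the data give no direction for B3galt1.

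For the ganglioside enzyme B3galt4 the array held 2 probes on chromosome 17. At 34087001 to 34087060 the level was 0.51, 0.49, 0.72 and 0.65 in control replicates 1 to 4 and 1.01, 0.70, 0.61 and 0.63 in mutant replicates 1 to 4. The probe at 34087156 to 34087215 ranged from -0.06 to 0.30 in controls and from 0.09 to 0.54 in mutants. Mutant replicate 1 was the highest of all 8 arrays at both probes, which gave differences of 0.15 (SE 0.12) and 0.14 (SE 0.13). Without mutant replicate 1 these were 0.05 and 0.04. The linker enzyme B3galt6 (chromosome 4, 155365285 to 155365344) was at -1.07, -1.14, -1.13 and -1.11 in controls and at -0.63, -1.14, -0.97 and -0.93 in mutants. Of the 4 mutants, 3 lay above every control and mutant replicate 2 below, and the difference was 0.19 (SE 0.12, 95% interval -0.07 to 0.46), or 0.10 without mutant replicate 1.

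Genes that work beside the B3galt enzymes and Cdc73 were taken from 7 lists with 68 genes, of which 65 had a tested probe (for a gene with several, the tested probe of highest mean). None of the 65 was called by limma, where 0.0423% of all tested probes were called, so a call among so few would be rare. An unadjusted p under 0.05 was found for 1, against 5.05% of all tested probes. The groups did not overlap for 3 of the 65, all lower in mutants, a share near the 4.38% of all tested probes (1.56% lower). These 3 were C1galt1c1 (-0.27, SE 0.14), Csgalnact1 (-0.35, SE 0.17) and Ugp2 (-0.25, SE 0.11). They encode, in that order, the chaperone of the core 1 galactosyltransferase, a chondroitin-initiating enzyme and the enzyme that makes UDP-glucose. Without mutant replicate 1 the differences were -0.14, -0.17 and -0.16. The gene with the low p, named after its value was seen, was the fucosyltransferase gene Fut7 (0.78, SE 0.30, unadjusted p = 0.0310, limma adjusted p = 0.828), whose groups overlapped.

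By list, 19 of 21 further genes of the same glycosyltransferase family were tested, with a median difference of 0.022, and Rfng and Chpf differed by -0.00081 (SE 0.10) and 0.025 (SE 0.12). Of the 7 beta-1,4-galactosyltransferases, which add galactose in the other common linkage, the median was 0.026, with B4galt3 at 0.026 (SE 0.12) and B4galt1 at -0.022 (SE 0.10). The 12 tested genes of chain capping enzymes, mostly fucosyl- and sialyltransferases, had a median of 0.050, with St3gal1 at 0.034 (SE 0.15) and B4galnt2 at -0.33 (SE 0.26). Another list held 11 genes of the proteoglycan linker, the pathway of B3galt6, and of the glycosaminoglycan chains built on it. Its median was 0.050, with Extl3 at 0.13 (SE 0.12) and Xylt2 at 0.13 (SE 0.11). The 5 genes of ganglioside synthesis, the pathway of B3galt4, had a median of -0.072, with St3gal5 at -0.25 (SE 0.15) and B4galnt1 at 0.15 (SE 0.11). Supply of UDP-galactose, the shared donor, was represented by 6 genes with a median of -0.041, with Galk1 at 0.13 (SE 0.15).

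For the partners of the Cdc73 protein in the Paf1 complex, the groups overlapped at the tested probe of highest mean. All 5 were tested, and at these probes their differences ran from -0.023 to 0.10 with a median of 0.014. Paf1 stood at 0.014 (SE 0.09), Ctr9 at 0.10 (SE 0.11), Leo1 at 0.022 (SE 0.11), Rtf1 at -0.022 (SE 0.09) and Wdr61 at -0.023 (SE 0.09). At these probes the upper end of the 95% intervals was at most 0.35 and the lower end at least -0.24. The other tested probe of Ctr9 differed by 0.18 and that of Rtf1 by -0.042.

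**Figure D4:**
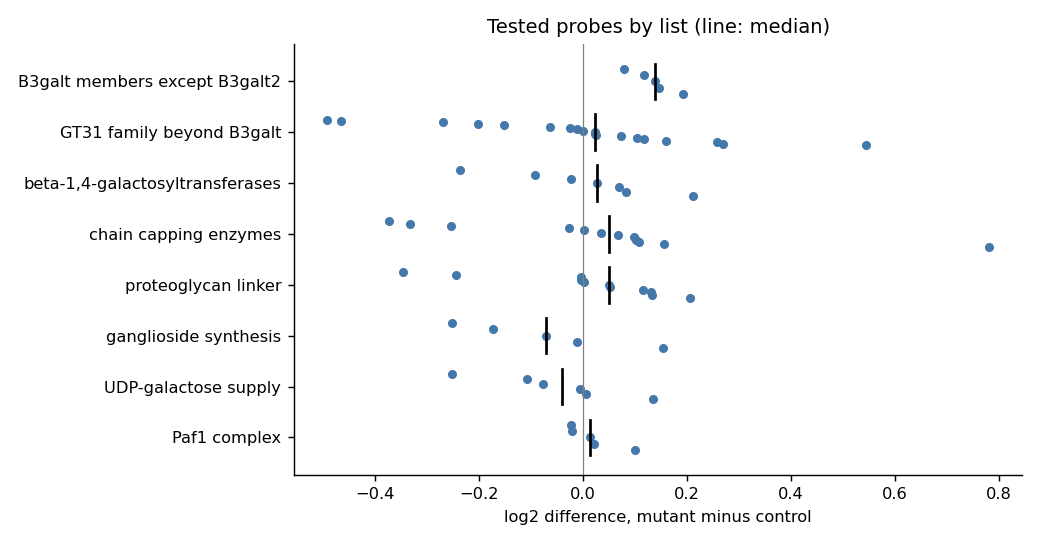
Difference between mutant and control means (log2) for the tested genes of the 7 lists and for the 5 probes of B3galt1, B3galt4, B3galt5 and B3galt6. Each point is 1 probe and each line the median of its list. The medians lie between -0.072 and 0.14, and the rightmost point is Fut7 at 0.78.

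Probes whose values over the 8 arrays were most like B3galt2 were those of Alg6 (Pearson r = 0.944), Ugt2b35 (0.933), Cela2a (0.932), Arxes2 (0.929) and Pdhb (0.929). For Cdc73 they were Trpa1 (0.966), Crls1 (0.957), Ptp4a1 (0.957), Sst (0.953) and Ppp1r2 (0.95). These are descriptions over 8 arrays that share the group contrast and the slide. Likeness of pattern did not mean likeness of size. Alg6 differed by 0.087, and Sst, the somatostatin gene, by -4.52 against -1.16 for Cdc73. B3galt2 and Cela2a were not well above background in any control, so their sizes are not compared.

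The array series as a whole bears on these values in 3 ways. The Rfx6 probe (chromosome 10, 51450116 to 51450175) was at -3.32, -3.20, -3.48 and -2.93 in controls and at -5.52, -3.37, -3.02 and -3.02 in mutants, so it does not separate the labels, and whether it lies in the deleted part is not given in the sources used here. Mutant replicate 1 stood apart, since its mean correlation with the others, across probes, was 0.975, while the rest had 0.989 to 0.990. The 75th percentile of intensity was 788 to 1027 and the share of probes well above background was 59.7% to 69.9%. Of 8 endocrine markers, 6 were called by limma, all lower in the mutants (against 0.0395% of all tested probes). They were Gip, Gcg, Cck, Sst, Ghrl and Nts. Chga and Chgb were not called and had overlapping groups, with differences of -0.27 (SE 0.14) and 0.026 (SE 0.10). Over the whole list, the mean level spanned 2.94 to 3.18 on control arrays and -0.41 to -0.33 on mutant arrays.

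The tested markers of pancreatic acinar cells had higher means in the mutants. Of 6 such markers, 5 were tested, none was called by limma (0.0423% of all tested probes were) and all 5 had an unadjusted p under 0.05 (5.05% of all tested probes did) with higher means in mutants. The groups did not overlap for Amy2a5 and Cel, nor for Cela2a, which is set aside below, and overlapped for Cpa1 and Ctrb1. Of all tested probes, 2.81% did not overlap with the mutants higher. Their mean level was -4.15 to -2.69 in controls and -1.80 to 0.26 in mutants, with -1.05, -1.80, -0.73 and 0.26 in mutant replicates 1 to 4. No control array had Cela2a well above background, so it passed the probe filter only through the 4 mutant arrays. Nothing is therefore read from its p, its separation or its place in these counts, and its floor values enter the control mean level. Amy2a5 was well above background on 3 of the 4 control arrays, and Pnlip was not tested. The lowest mutant was replicate 2 for the acinar mean and replicate 1, which stood apart across all probes, for B3galt2. Whether acinar RNA has a part in the B3galt2 values was not tested. For enteric neurons (6 markers, 0.80 to 1.30 in controls and 1.04 to 1.25 in mutants), enterocytes (6, 7.52 to 7.68 and 7.48 to 7.88), goblet cells (5, 4.82 to 5.13 and 4.81 to 5.20) and leukocytes (4, -1.64 to -1.44 and -1.65 to -1.54) the ranges of mean level overlapped. They also overlapped for smooth muscle (5, 4.23 to 4.86 and 4.74 to 5.17) and the 2 tested erythroid markers (3.42 to 4.61 and 3.42 to 4.17). Endothelial markers (4) were at 0.29 to 0.48 in controls and 0.48 to 0.83 in mutants. In these 7 lists no marker was called by limma (0.0423% of all tested probes were). None had an unadjusted p under 0.05 (5.05% of all tested probes did).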

How the data were processed

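Cy3-labelled RNA was made from 100 ng per sample, per the labels' protocols. Per the file headers, the authors read design 028005, annotated on mm9, with Agilent Feature Extraction 10.10.1.1 and deposited linear intensity values, background-corrected and detrended within each array. A second table the authors deposited holds linear intensity of unstated processing, with a median of 123.3 in each of its 8 columns.

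The level was log2 processed intensity minus the log2 75th percentile of the array over 59305 non-control spots. Outlier spots (117 to 157 per array) were left out, no non-control spot was saturated, and spots of a probe were averaged. Probes well above background on at least 4 of 8 arrays, counted without regard to group, were tested (35472), and 20209 were dropped. Groups were compared per probe with limma 3.58.1 in R 4.3.3, two-sided, without covariates, with Benjamini-Hochberg adjustment over all tested probes and a threshold of 0.05. The fit was tested on data simulated with the means and SDs of the tested probes. It called 60% of 100 probes changed by 1 log2 unit and 97% of 100 changed by 3, with 8 false calls. A probe that was not called may thus still have changed by 1 log2 unit. Probes were named for the lists through RefSeq accessions (26687), symbols (2536) or older symbols (474), and 25984 kept the file's name.

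The members and lists were chosen with earlier results of these data known. Genes were named by rule: all members, tested genes within 2 Mb, called list members, genes of highest mean in each pathway list, and the 5 most alike by Pearson r. All arrays share 1 slide, whose row was tried as a block. The description fields of 3 mutants name Rfx7, Rfx8 or Rfx9; groups were taken from the source names instead. Alternatives covered background correction (normexp with an offset of 50), scaling, probe filters, the deposited table, array weights, blocks, 1 probe per gene and each array left out. Values of 1 gene of the pathway lists are not reported here.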

Additional observations from a re-analysis of the deposited data

Results flagged for a closer look

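Dixon's 95% criterion for an array far from its group (0.829 for 4 arrays) was applied to 32 groups of member probes and tested neighbours within 2 Mb. It was passed in 3 groups, against 1.6 by chance at 1 in 20, each time by mutant replicate 1. It was at -4.15 for B3galt2, with the other mutants at -1.56 to -1.54. For ENSMUST00000105081 it was at -1.97, with the others at -1.21 to -1.12. For Trove2 it was at -2.77, with the others at -0.76 to -0.56. The cause was not tested.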

How the results depend on the processing

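In limma, 15 probes were called, against 24 with normexp correction, 39 with array weights, 7 with the replicate block and 9 to 20 when 1 array was left out (9 without control replicate 2 and 9 without mutant replicate 3). Same-numbered arrays did not deviate together (correlations of deviations -0.087 to 0.0996), so the replicate block pairs a number only. The replicate block left every mean difference as it was. The B3galt2 difference of 5.52 was 2.08 with normexp correction and 2.09 with the deposited table, and 5.30 to 6.17 when 1 array was left out. It could not be computed with the filter requiring all 8 arrays, which removes the probe. The Cdc73 difference of -1.16 was -0.90 with normexp correction and -0.90 with the deposited table, and -1.29 to -1.03 when 1 array was left out. Both kept their direction in every alternative that gave a value (17 and 18). The B3galt1 difference ranged from -0.055 (without control replicate 3) to 0.28 (without mutant replicate 1) and that of B3galt5 from -0.016 (without mutant replicate 1) to 0.14 (without mutant replicate 4). No neighbour probe and no probe of B3galt1, B3galt4, B3galt5 or B3galt6 was called in any alternative. B3galt2 in controls is limited by signal over background.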
